A study of Mus musculus with 20 samples.

Results

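The immediate early response genes Egr1, Fos, Fosb, Jun, Junb, Jund, Atf3, Ier2, Ier3 and Myc were followed across mouse heart ventricles that express the tetracycline transactivator (tTA). Every probe set that the platform annotation links to 1 of these 10 genes was taken, whatever its value, which gave 15 of the 12488 probe sets on the array. Ier3 was already known to be lower in tTA hearts, and the question was whether the other members followed it.

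The study measured transcripts in total RNA of ventricular tissue on Affymetrix arrays, with values deposited as intensity on a linear scale. The 19 arrays with a group comprised 5 of tTA hearts given doxycycline (tTA + Doxy), 8 of tTA hearts without it (tTA), 4 of FVBN hearts given doxycycline (FVBN + Doxy) and 2 of untreated FVBN hearts (FVBN control). The labels name the alpha MHC promoter, which drives expression in cardiomyocytes, as the source of tTA, and call the FVBN mice wild type. Neither the dose and length of doxycycline treatment nor the age of the mice is stated, and separate animals are not stated either, so p-values speak only of the spread among these arrays, which may be technical. Precision is limited by the number of arrays, most of all for the 2 of FVBN control. Arrays are named by the numbers in their titles.

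The tTA protein is a transcription activator that binds tetracycline operator sequences, and doxycycline stops it from binding. Immediate early genes are transcribed within minutes of a stimulus without new protein synthesis, mostly through serum response factor and its ternary complex partners, CREB and NF-kappa-B. Their products include the zinc finger factor Egr1, the Fos and Jun proteins that pair into the AP-1 transcription factor, the stress-induced factor Atf3, and the survival regulator Ier3, and in the heart they are known to rise with stretch, adrenergic stimulation and tissue handling.

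Several features of the arrays moved with genotype. The beta-actin control probe sets at the 3' and 5' ends of the transcript gave a log2 ratio (3' over 5'), a measure of RNA integrity, which averaged 0.362 ± 0.06 in tTA + Doxy (SD, n = 5) and 0.323 ± 0.11 in tTA (n = 8), against 0.509 ± 0.079 in FVBN + Doxy (n = 4) and 0.549 ± 0.0082 in FVBN control (n = 2). The same ratio for the Gapdh control probe sets overlapped between the genotypes. It averaged 0.0475 ± 0.045 in tTA + Doxy and 0.0333 ± 0.083 in tTA (SD). In FVBN + Doxy it averaged 0.0556 ± 0.051, and in FVBN control 0.008 ± 0.068. The labels do not say what the array numbers stand for. No stretch of them holds both genotypes, or arrays of 1 genotype with and without doxycycline. Anything that goes with the numbers therefore cannot be told apart from the group. The tTA numbers run from 7288 to 7311, with 9310 and 9322 apart from them, and the fit was also run without arrays 9310 and 9322. All 8 cardiomyocyte markers were among the tested probe sets, while the atrial marker Myl7, at a mean intensity of 37.9, was dimmer than every tested one. The 3 other atrial markers were tested, with mean intensities of 282.1 for Nppa, 80.1 for Myl4 and 45.9 for Sln. The 7 measured endothelial markers summed to 958–1079 intensity units in tTA + Doxy and 1004–1082 in tTA, against 1034–1103 in FVBN + Doxy and 1158–1186 in FVBN control. The 5 smooth muscle markers summed to 524–698 in tTA + Doxy and 456–543 in tTA, against 612–785 in FVBN + Doxy and 725–757 in FVBN control. Of these, Acta2 read 198–373 in tTA + Doxy and 146–207 in tTA, against 293–450 in FVBN + Doxy and 393–452 in FVBN control, while the other 4 summed to 303–345 on tTA arrays of both kinds against 304–348 on FVBN arrays. Acta2 was also the 1 smooth muscle marker called, in tTA against FVBN control hearts (-1.27, limma adjusted p = 0.00151) and under doxycycline (-0.66, adjusted p = 0.0278). The cardiomyocyte marker Ryr2 was called lower in tTA without doxycycline (-0.82, limma adjusted p = 5.94e-05) and with it (-0.58, adjusted p = 0.000527). Mybpc3 was called higher under doxycycline (0.31, limma adjusted p = 0.00104). The endothelial marker Emcn was called lower in tTA without doxycycline (-0.28), and fibroblast Fbln1 (-0.25) and macrophage Cd14 (-0.19) under it. Averaged over both doxycycline states, Cdh5 (-0.20) and Emcn (-0.19) of the 7 tested endothelial markers were called lower. Csf1r (-0.14) and Lyz2 (-0.28) of the 7 tested macrophage and monocyte markers were too. All 7 of each list lay below 0 in that average and none was called higher, beside 4.31% of all tested probe sets called lower. The 8 macrophage and monocyte markers summed to 895–1088 in tTA + Doxy and 860–1007 in tTA, against 1038–1126 in FVBN + Doxy and 960–1047 in FVBN control, and the 2 measured red blood cell markers to 2370–5335 in tTA + Doxy and 2509–4657 in tTA, against 4992–5554 in FVBN + Doxy and 4998–5123 in FVBN control. The summed fibroblast and atrial markers overlapped between the genotypes in both doxycycline states, and the neutrophil markers, at 214–240 on tTA arrays of both kinds against 210–232 on FVBN arrays, did so with doxycycline. None of the measured markers was at 0. The part of these cells in the results that follow was not tested. In whole ventricle, fewer cells of a type and less RNA per cell cannot be told apart.

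Of the 15 probe sets, 11 for 8 genes were tested, being among the brightest 60% when averaged over all 19 arrays. The dimmest tested probe set averaged 44.3. The 4 others were both Fos probe sets, the single Myc probe set and the second Egr1 probe set, with means of 11.8 to 21.5. A difference was called at an adjusted p below 0.05 in limma, adjusted by the Benjamini-Hochberg method over all 7453 tested probe sets.

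Ier3 encodes a stress-inducible protein that acts on cell survival and is a known target of NF-kappa-B. Its promoter is shown because Ier3 was the one member called lower in tTA against FVBN control hearts. It is given beside that of Junb, the other member with any call, as the 250 bases before each transcription start in RefSeq (GRCm38.p6), at chr17:35821463-35821712 on the plus strand for Ier3 and chr8:84978749-84978998 on the minus strand for Junb, with matched motifs in capitals.
Ier3: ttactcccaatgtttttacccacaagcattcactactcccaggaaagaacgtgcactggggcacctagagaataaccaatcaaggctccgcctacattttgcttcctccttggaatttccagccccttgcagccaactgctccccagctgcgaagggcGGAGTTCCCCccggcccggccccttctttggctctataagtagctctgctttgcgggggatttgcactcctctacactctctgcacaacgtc
Junb: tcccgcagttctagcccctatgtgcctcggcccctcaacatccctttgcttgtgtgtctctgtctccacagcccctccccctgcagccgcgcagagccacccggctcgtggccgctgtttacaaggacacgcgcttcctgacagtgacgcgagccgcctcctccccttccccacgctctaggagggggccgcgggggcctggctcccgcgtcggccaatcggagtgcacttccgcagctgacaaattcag
The capitals in Ier3 mark a match to the NF-kappa-B site, 92 to 83 bases before the start, which 7.25% of 32851 mouse promoter windows of the same length also hold. Both strands were searched for 7 motifs: the NF-kappa-B site, the CArG box bound by serum response factor (in 1.47% of windows), the cyclic AMP response element TGACGTCA (1.55%), the AP-1 site TGAGTCA (4.46%), the E-box CACGTG (6.02%), the EGR site GCGGGGGCG (2.57%) and the TATA box TATAAA (12.4%). The Junb window held none of these letter strings. Among the 7 members with a promoter entry, Fos held a TATA box 33 to 28 bases and an NF-kappa-B site 214 to 205 bases before its start, and Fosb an EGR site at 50 to 42 and an NF-kappa-B site at 188 to 179 bases, while Atf3, Jun and Jund held none. Egr1, Ier2 and Myc were not searched. A match is a string of letters, not a bound site.

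Ier3 was high on the FVBN control arrays and lower on all others with a group. Its single probe set read 214, 236, 211, 234 and 201 on the 5 tTA + Doxy arrays, and from 181 through a median of 212 to 226 on the 8 tTA arrays. It read 238, 195, 206 and 230 on the 4 FVBN + Doxy arrays, and 364 and 301 on the 2 FVBN control arrays. The tTA and FVBN control arrays did not overlap, as was so, with tTA lower, for 6.09% of all tested probe sets, while the tTA + Doxy and FVBN + Doxy arrays lay within the same range.

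In tTA against FVBN control hearts Ier3 was 1.57-fold lower, a log2 fold change of -0.66 ± 0.09 (SE, limma adjusted p = 0.000275, 95% interval -0.85 to -0.46), with all 8 tTA arrays below the FVBN control mean. This difference was known when the genes were chosen, so it is given as a description. Leaving out either FVBN control array leaves 1 array in that group, and it is then assumed to vary like the other groups. Without FVBN control array 8177 the log2 fold change was -0.53 (limma adjusted p = 0.0478) and without array 8182 it was -0.78 (adjusted p = 0.0017). With the beta-actin ratio in the fit it was -0.61 (limma adjusted p = 0.0326). Under doxycycline the same genotype difference was -0.02 ± 0.08 (adjusted p = 0.895), with an interval from -0.19 to 0.14.

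The FVBN arrays differed between themselves. Ier3 in FVBN + Doxy against FVBN control stood at -0.55 ± 0.10 on the log2 scale, with all 4 FVBN + Doxy arrays below both FVBN control arrays, and did not pass the threshold (limma adjusted p = 0.0539, interval -0.76 to -0.33). This comparison and the one of tTA against FVBN control share the same 2 FVBN control arrays. In tTA + Doxy against tTA hearts the difference was 0.09 ± 0.07 (adjusted p = 0.811). The interaction, the doxycycline difference in tTA minus that in FVBN hearts, was 0.63 ± 0.12 and did not pass either (limma adjusted p = 0.0663, interval 0.37 to 0.89). Other settings of the fit called the FVBN doxycycline difference 9 times in 30 and the interaction 4 times in 29. Averaged over both doxycycline states, Ier3 was lower in tTA hearts at -0.34 ± 0.06 (adjusted p = 0.00117), a call that was lost with the beta-actin ratio in the fit (-0.30, limma adjusted p = 0.084).

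**Figure D1:**
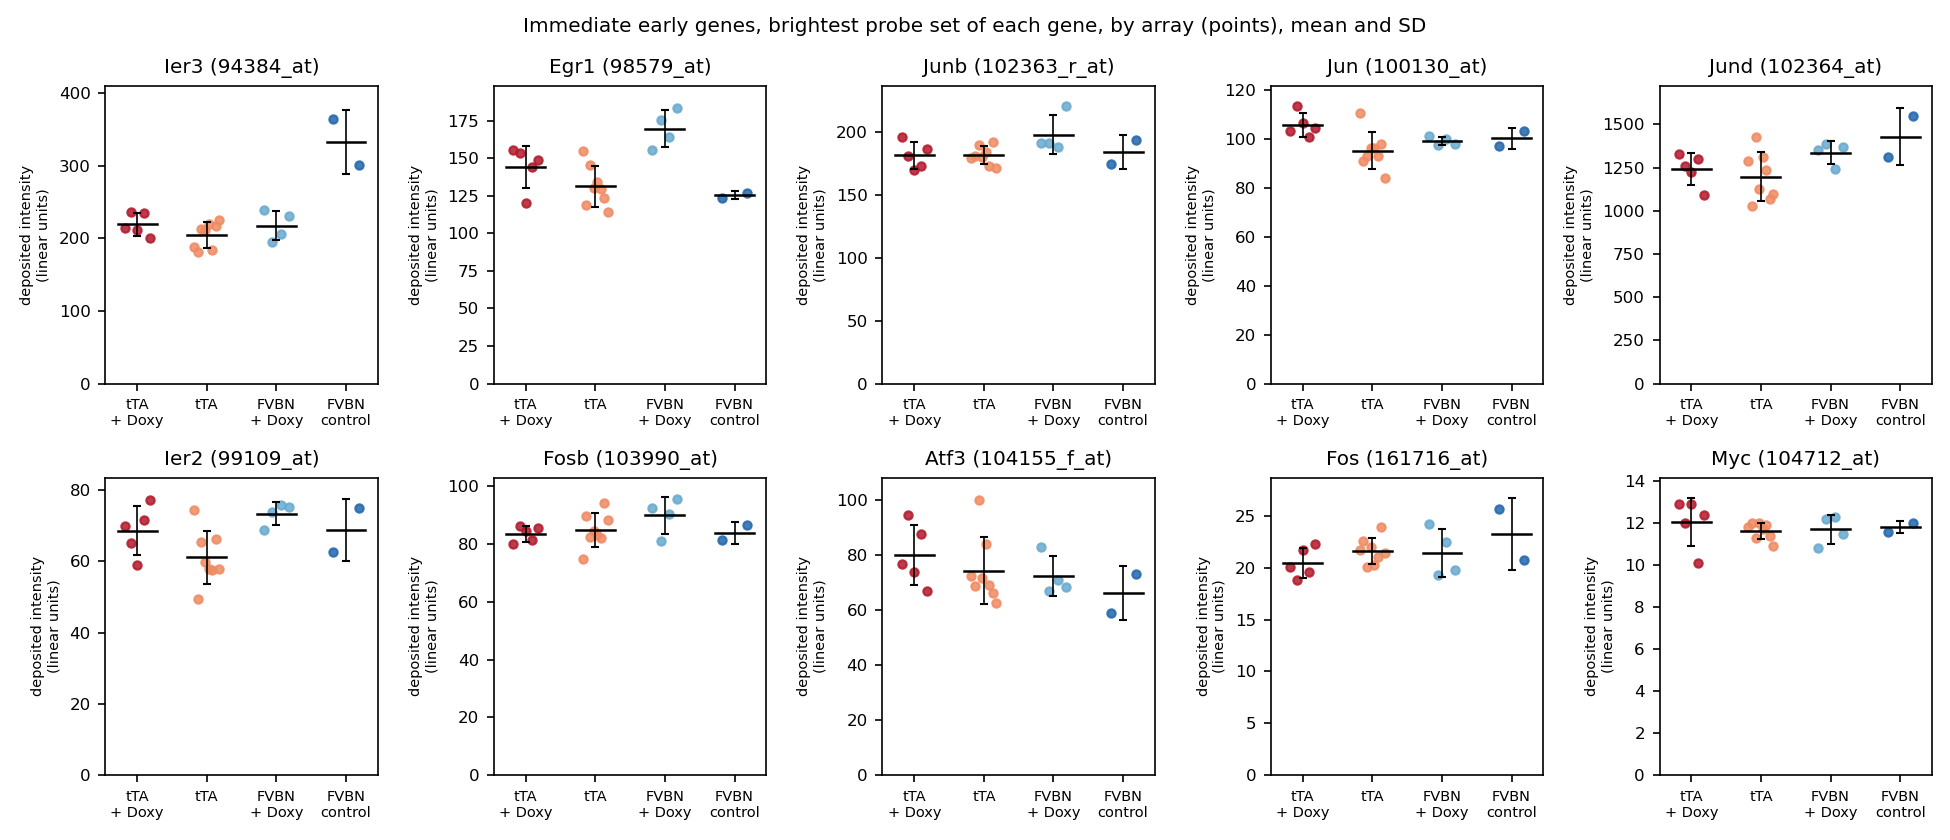
Deposited intensity (linear units, axis from 0) of the brightest probe set of each of the 10 genes, by group, with 1 point per array and the mean and SD as bars. Ier3 lies at 301 and 364 on the 2 FVBN control arrays and between 181 and 238 on all others, while the groups of most other genes overlap.

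The other members did not pass the test in tTA against FVBN control hearts. Of the 10 tested probe sets other than that of Ier3, none was called in limma and none reached an unadjusted p below 0.05, and 2.79% of all tested probe sets were called in this comparison, 1.82% lower and 0.966% higher. Of all those called, 34.6% were higher, a share that was 17.2% when arrays were scaled to 1 common median. Of the 10, 6 lay below 0, with a median log2 fold change of -0.00436, against 0.0133 and 45% below 0 over all tested probe sets. The 95% intervals of the 10 ran no lower than -0.42, for Ier2, and no higher than 0.45, for an Atf3 probe set.

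Under doxycycline no member was called in tTA + Doxy against FVBN + Doxy hearts, where 5.86% of all tested probe sets were called, 4.27% higher and 1.6% lower. Of the 437 called, 72.8% were higher, and 81.5% of those called with arrays scaled to 1 common median. Of the 11, 9 lay below 0 (median -0.123), against 56.1% of all tested probe sets (median -0.0148). An unadjusted p below 0.05 was reached by 4 of the 11, those of Egr1, Atf3 and both Junb probe sets, and by 21.1% of all tested. The groups did not overlap, with tTA + Doxy lower, for 2 of the 11 and for 3.49% of all tested.

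**Figure D2:**
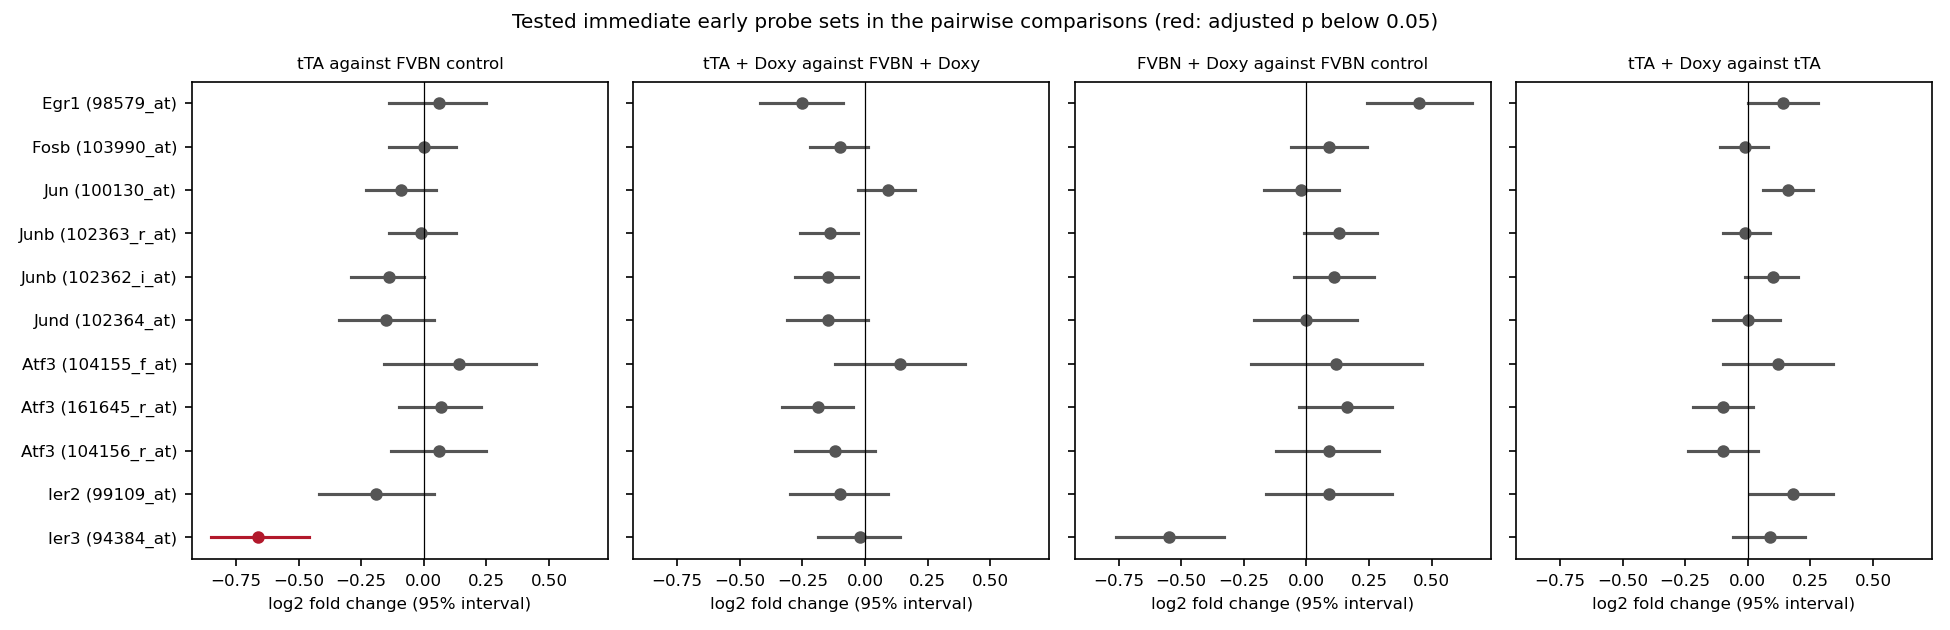
Log2 fold change of the 11 tested probe sets in the 4 pairwise comparisons, as points with 95% intervals, with red for an adjusted p below 0.05. Ier3 at -0.66 in tTA against FVBN control is the only red point, and Ier3 and Egr1 stand at -0.55 and 0.45 in FVBN + Doxy against FVBN control.

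Egr1, a zinc finger transcription factor induced by growth factors and stretch, was highest in the FVBN + Doxy hearts. Its tested probe set read 155, 153, 120, 144 and 149 on the tTA + Doxy arrays and 156, 175, 164 and 183 on the FVBN + Doxy arrays. All 5 tTA + Doxy arrays thus lay below all 4 FVBN + Doxy arrays, the nearest pair being less than 1 intensity unit apart. The difference was -0.25 ± 0.08 on the log2 scale and did not pass the threshold (limma adjusted p = 0.0616), although 4 of 30 other settings of the fit called it.

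Without doxycycline Egr1 ran from 114 through a median of 130 to 155 on the tTA arrays, against 124 and 127 on the FVBN control arrays. Both FVBN control arrays lay inside the range of the tTA arrays, and the difference was 0.06 ± 0.09 (adjusted p = 0.811). In FVBN + Doxy against FVBN control hearts the 4 doxycycline arrays all lay above the 2 control arrays, by 0.45 ± 0.10, which did not pass (limma adjusted p = 0.133). Ier3 and Egr1 therefore lay on opposite sides of 0 in that comparison. The second Egr1 probe set, too dim to be tested, read 16.8–20.4 on all arrays, and its deviations from the group means ran opposite to those of the first (r = -0.60 over 19 arrays).

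Fos and Fosb encode the Fos partners of AP-1. The brighter Fos probe set read 18.8–22.3 in tTA + Doxy and 20.1–24.0 in tTA, against 19.3–24.2 in FVBN + Doxy and 20.8 and 25.7 in FVBN control, so all groups overlapped. The second Fos probe set lay below the floor of 14.37 set on low intensities on 14 of the 19 arrays, and no Fos difference could be measured at this brightness. Fosb averaged 83.5 ± 2.76 in tTA + Doxy (SD, n = 5) and 84.9 ± 5.84 in tTA (n = 8), against 90.0 ± 6.26 in FVBN + Doxy (n = 4) and 84.0 ± 3.79 in FVBN control (n = 2). The 4 Fosb groups overlapped, and its genotype difference was -0.10 ± 0.06 with doxycycline (limma adjusted p = 0.287) and 0.00 ± 0.07 without (adjusted p = 0.988).

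Jun, the activating AP-1 partner, averaged 106 ± 4.82 in tTA + Doxy (SD, n = 5) and 95.2 ± 7.51 in tTA (n = 8), against 99.2 ± 1.71 in FVBN + Doxy (n = 4) and 100 ± 4.32 in FVBN control (n = 2). It read 101–113 on the 5 tTA + Doxy arrays, and on the tTA arrays 84.2–111 with a median of 94.7, so the highest tTA array lay inside the range of the tTA + Doxy arrays. The difference between tTA + Doxy and tTA was 0.16 ± 0.05 and did not pass (limma adjusted p = 0.365), in a comparison that called 0.0671% of all tested probe sets and no member.

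Junb, an AP-1 partner that can hold back Jun, had a pair of tested probe sets. The first, 102362_i_at, read 132, 135, 118, 128 and 124 on the tTA + Doxy arrays and 136, 138, 138 and 153 on the FVBN + Doxy arrays. Without doxycycline it ran from 109 through a median of 120 to 137 on the tTA arrays, against 128 and 136 on the FVBN control arrays. With doxycycline the genotypes did not overlap, tTA + Doxy being lower, and without it they did. The nearest pair with doxycycline read 135.3 in tTA + Doxy and 135.8 in FVBN + Doxy. The difference with doxycycline was -0.15 ± 0.06 and did not pass (limma adjusted p = 0.138).

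Averaged over doxycycline, 102362_i_at was lower in tTA hearts by 1.11-fold, at -0.15 ± 0.05 (limma adjusted p = 0.0451), a call that 17 of 29 other settings of the fit lost. Apart from Ier3, known beforehand to be lower in tTA hearts, it was the 1 called of the 10 other tested member probe sets in that average. Of all tested probe sets 9.08% were called there and 4.31% were called lower. The second Junb probe set, 102363_r_at, averaged 181 ± 10.7 in tTA + Doxy and 181 ± 7.16 in tTA, against 198 ± 15.2 in FVBN + Doxy and 184 ± 13.5 in FVBN control. Its average genotype difference was -0.08 ± 0.04 and did not pass (limma adjusted p = 0.331), so the probe sets of Junb did not give the same call. The suffix of 102362_i_at marks an incomplete set of unique probes, and that of 102363_r_at a dropped rule of probe choice. The Junb call therefore does not rest on a standard probe set.

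Jund, the AP-1 partner known for high steady expression, read 1091–1331 in tTA + Doxy and 1028–1430 in tTA, against 1241–1384 in FVBN + Doxy and 1311 and 1547 in FVBN control. The groups overlapped in both genotype comparisons, which gave -0.15 ± 0.08 with doxycycline (limma adjusted p = 0.278) and -0.15 ± 0.09 without (adjusted p = 0.429). Their average of -0.15 ± 0.06 did not pass (adjusted p = 0.138).

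Atf3, a factor of the ATF/CREB family induced by stress, had 3 tested probe sets that did not move together. Under doxycycline 161645_r_at stood at -0.19 ± 0.07 (limma adjusted p = 0.111), 104156_r_at at -0.12 ± 0.08 (adjusted p = 0.373) and 104155_f_at at 0.14 ± 0.12 (adjusted p = 0.527). The first read 58.5–68.5 in tTA + Doxy, against 62.3–80.8 in FVBN + Doxy, and the groups overlapped. Without FVBN + Doxy array 8340 its difference was -0.26 and was called (limma adjusted p = 0.0246). The suffix of 104155_f_at marks probes shared by a sequence family, so its level may include related transcripts. That of 161645_r_at and 104156_r_at marks probe sets for which a rule of probe choice was dropped.

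Ier2, a nuclear early response protein, read 70, 65, 59, 72 and 77 on the tTA + Doxy arrays, and 49.4–74.5 with a median of 58.9 on the tTA arrays. It read 69, 74, 76 and 75 on the FVBN + Doxy arrays, against 63 and 75 on the FVBN control arrays. All groups overlapped, and the differences were -0.10 ± 0.09 with doxycycline (limma adjusted p = 0.559) and -0.19 ± 0.11 without (adjusted p = 0.414). Myc, the growth-promoting transcription factor, read 10.1–12.9 on all 19 arrays and lay below the floor on each, so no difference in Myc could be measured.

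Doxycycline in FVBN hearts gave no member call and 0.0403% called of all tested probe sets. Of the 11 members, 2 had groups that did not overlap with FVBN + Doxy higher on the normalized scale, Egr1 and 102362_i_at of Junb, against 12.7% of all tested, and Ier3 was the 1 lower, against 10.7%. Ier3 was chosen for its difference from the same 2 FVBN control arrays, so its place in these counts is given as a description. An unadjusted p below 0.05 was reached by Ier3 and by 1 of the 10 other member probe sets, that of Egr1. Of all tested probe sets 11.8% reached it. The interaction called no member and 0.0134% of all tested probe sets. An unadjusted p below 0.05 in it was reached by Ier3, which again rests on those FVBN control arrays. Of the 10 other member probe sets 2 reached it, those of Egr1 and Atf3, beside 14.6% of all tested.

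Whether the members move together from array to array was asked apart from the groups, with each gene's brightest probe set and the group mean removed from each array. Myc, at the floor on every array, was left out, which left 36 pairs of 9 genes over 19 arrays. Of these, 22 pairs had r above 0 and 3 passed by r after adjustment over the 36 (permutation test within groups, two-sided, 100000 resamples). Among the 28 pairs without Fos, which was too dim to be tested between groups, 20 had r above 0, and 1 passed by r when adjusted over the 28 alone. Jund and Atf3 varied together (r = 0.75, permutation p = 0.00147, adjusted 0.0306; rho = 0.81, permutation p = 0.00065, adjusted 0.0133), also over the 28 alone (adjusted permutation p = 0.0412), and r was 0.73 without the 2 arrays farthest from the median of Jund. The Atf3 probe set here is the one with family probes.

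Egr1 and Ier2 passed over the 36 pairs (r = 0.69, permutation p = 0.00402, adjusted 0.0482) but not over the 28 (adjusted permutation p = 0.0563). Their rank correlation did not pass (rho = 0.61, permutation p = 0.00885, adjusted 0.0637), and r was 0.48 without the 2 arrays farthest from the median of Egr1. The third pair was Fos and Jund (r = -0.66, permutation p = 0.0017, adjusted 0.0306; rho = -0.70, permutation p = 0.00074, adjusted 0.0133), with r at -0.71 without 2 arrays. At its 18.8–25.7 intensity units no statement on Fos transcripts rests on this r. By rank Egr1 and Jund also passed over the 36 (rho = 0.69, permutation p = 0.0028, adjusted 0.0336). Over the 28 alone their adjusted permutation p by rank was 0.0392. Their r of 0.58 did not pass over the 36 (adjusted permutation p = 0.134). Egr1 and the dim Fos probe set also passed by rank (rho = -0.60, permutation p = 0.00492, adjusted 0.0443). Their r of -0.51 did not (adjusted permutation p = 0.124). Ier3 passed with no other member, its r running from -0.13 with Ier2 to 0.39 with Fosb. Within groups no member passed against the beta-actin ratio, the lowest adjusted permutation p over 9 relations being 0.608.

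**Figure D3:**
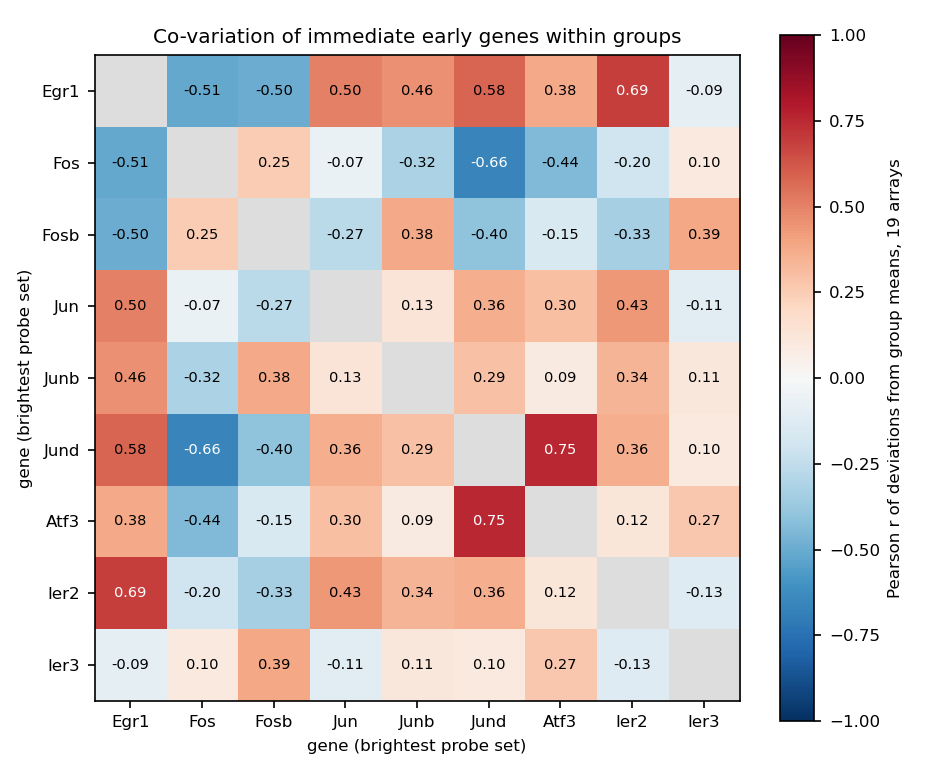
Pearson r of the deviations from group means over 19 arrays for each pair of 9 members, on a colour scale from -1 to 1. The highest cells are Jund with Atf3 at 0.75 and Egr1 with Ier2 at 0.69, the lowest is Fos, too dim to be tested, with Jund at -0.66, and the Ier3 row runs from -0.13 to 0.39.

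As a description, the tested probe sets of other genes whose deviations were most like those of Ier3 over the 19 arrays were those of Avpi1 (r = 0.79), Tspan33 (0.717) and Gzmm (0.674). For the brightest Junb probe set, 102363_r_at, which was not the one called, they were those of Pdia4 (r = 0.856), Ndel1 (0.839) and Josd2 (0.806). Between probe sets of 1 gene, r was 0.58 for Junb, and 0.18 to 0.46 for the 3 pairs of Atf3.

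Among 49 other early response genes, 41 were on the array with a probe set of their own and 35 were tested, each by its brightest. In tTA against FVBN control hearts 2 of the 35 were called lower and none higher, beside 1.82% lower and 0.966% higher of all tested probe sets, with a median of 0.00267 against 0.0133. Under doxycycline 2 were called lower and none higher, beside 1.6% and 4.27% of all tested, with a median of -0.0256 against -0.0148. Averaged over doxycycline 5 were called lower and none higher, beside 4.31% and 4.78% of all tested, with a median of -0.0129 against 0.0006. With the beta-actin ratio in the fit all 5 of these calls were lost. That setting left 70 of all tested probe sets called lower, where there had been 321. Plk2 then stood at -0.18 as before (limma adjusted p = 0.0858), Dusp1 at -0.21 where it had been -0.26 (adjusted p = 0.0965) and Bhlhe40 at -0.21 where it had been -0.25 (adjusted p = 0.273). Nfkbia stood at -0.14 where it had been -0.21 (limma adjusted p = 0.374), and Mcl1 at -0.05 where it had been -0.16 (adjusted p = 0.773).

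Dusp1, the phosphatase that switches off MAP kinases, read 379–417 in tTA + Doxy and 310–433 in tTA, against 460–519 in FVBN + Doxy and 441 and 450 in FVBN control. All tTA arrays lay below all FVBN arrays in both doxycycline states, as was so for 6.09% of all tested probe sets without doxycycline and 3.49% with it. The difference under doxycycline was -0.31 ± 0.06 (limma adjusted p = 0.00354), called in 30 of 30 other settings. Without doxycycline it was -0.21 ± 0.07 and was not called (limma adjusted p = 0.112), and 1 of 30 other settings called it. There the nearest arrays read 432.6 in tTA and 440.9 in FVBN control. Plk2, a stress-induced kinase, read 232–246 in tTA + Doxy against 251–307 in FVBN + Doxy, without overlap, at -0.22 ± 0.05 (limma adjusted p = 0.0118). Without FVBN + Doxy array 8340 the Plk2 call was lost (adjusted p = 0.0528).

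Without doxycycline, Bhlhe40, a transcription repressor of the clock, read 103–139 in tTA, against 127 and 173 in FVBN control, with overlap. It was lower by 1.33-fold, at -0.41 ± 0.10 (limma adjusted p = 0.0262), but without FVBN control array 8182, with 1 array left in that group and the spread taken from the others, it stood at -0.20 and did not pass (adjusted p = 0.478). Mcl1, an antiapoptotic relative of Bcl2, read 141–181 in tTA, against 189 and 202 in FVBN control, at -0.29 ± 0.08 (limma adjusted p = 0.0463), and 15 of 30 other settings lost this call. Nfkbia, the inhibitor of NF-kappa-B and itself its target, was lower on average over doxycycline at -0.21 ± 0.05 (limma adjusted p = 0.0155). Its second probe set stood at -0.22 ± 0.08 and did not pass (adjusted p = 0.107), and without FVBN control array 8177 the first stood at -0.17 and was not called (limma adjusted p = 0.161).

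Of 24 listed partners of AP-1, ATF and Myc proteins 18 were tested. None was called in tTA against FVBN control hearts (median 0.0127), beside 2.79% of all tested probe sets. Under doxycycline 4 were called higher and none lower (median 0.00347), beside 4.27% higher and 1.6% lower of all tested probe sets. In that comparison 318 of the 437 probe sets called among all tested were higher. Max, the dimerization partner of Myc, read 74.4–113 in tTA + Doxy against 57.5–82.8 in FVBN + Doxy, at 0.49 ± 0.11 (limma adjusted p = 0.0153), with overlap. Atf6, a sensor of endoplasmic reticulum stress, read 101–139 in tTA + Doxy against 83.9–98.4 in FVBN + Doxy, without overlap, at 0.30 ± 0.07 (limma adjusted p = 0.012).

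Without FVBN + Doxy array 8341 neither call passed, with Max at 0.40 (limma adjusted p = 0.0637) and Atf6 at 0.26 (adjusted p = 0.0556). Nfe2l1, at 0.25 ± 0.07 (limma adjusted p = 0.0402), and Mafk, at 0.17 ± 0.05 (adjusted p = 0.0393), which pair with each other to drive antioxidant genes, lost their calls under 11 and 10 of 30 other settings. The second tested Nfe2l1 probe set was not called, at 0.14 ± 0.08 under doxycycline (limma adjusted p = 0.296). It was not called averaged over doxycycline either (0.12 ± 0.06, limma adjusted p = 0.285). Averaged over doxycycline, 3 were called higher, Atf6, Nfe2l1 and Mafk, and 1 lower, beside 4.78% higher and 4.31% lower of all tested probe sets. The lower one was the Max partner Mnt, at -0.12 ± 0.04 (limma adjusted p = 0.0498), a call that 20 of 29 other settings lost.

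Of 34 kinases, regulators and serum response factor genes that act upstream of the early genes, 21 were on the array with a probe set of their own and 16 were tested. Map3k1, a kinase above Jun N-terminal kinase, was the 1 called, lower in tTA against FVBN control hearts, beside 1.82% of all tested probe sets called lower there. It read 93.5–111 in tTA, against 118 and 131 in FVBN control, without overlap (-0.29 ± 0.07, limma adjusted p = 0.0215). With 1 FVBN control array left and the spread taken from the other groups it was not called, at -0.22 without array 8177 (limma adjusted p = 0.414) and at -0.36, a larger difference, without array 8182 (adjusted p = 0.0607). The other probe sets of Map3k1, too dim to be tested, stood at -0.04 ± 0.13 and -0.08 ± 0.07. The median of the 16 was 0.0346 in this comparison and 0.00419 under doxycycline, where none was called, beside 5.86% of all tested probe sets. None of the 3 lists had a call for doxycycline in either genotype or for the interaction.

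**Figure D4:**
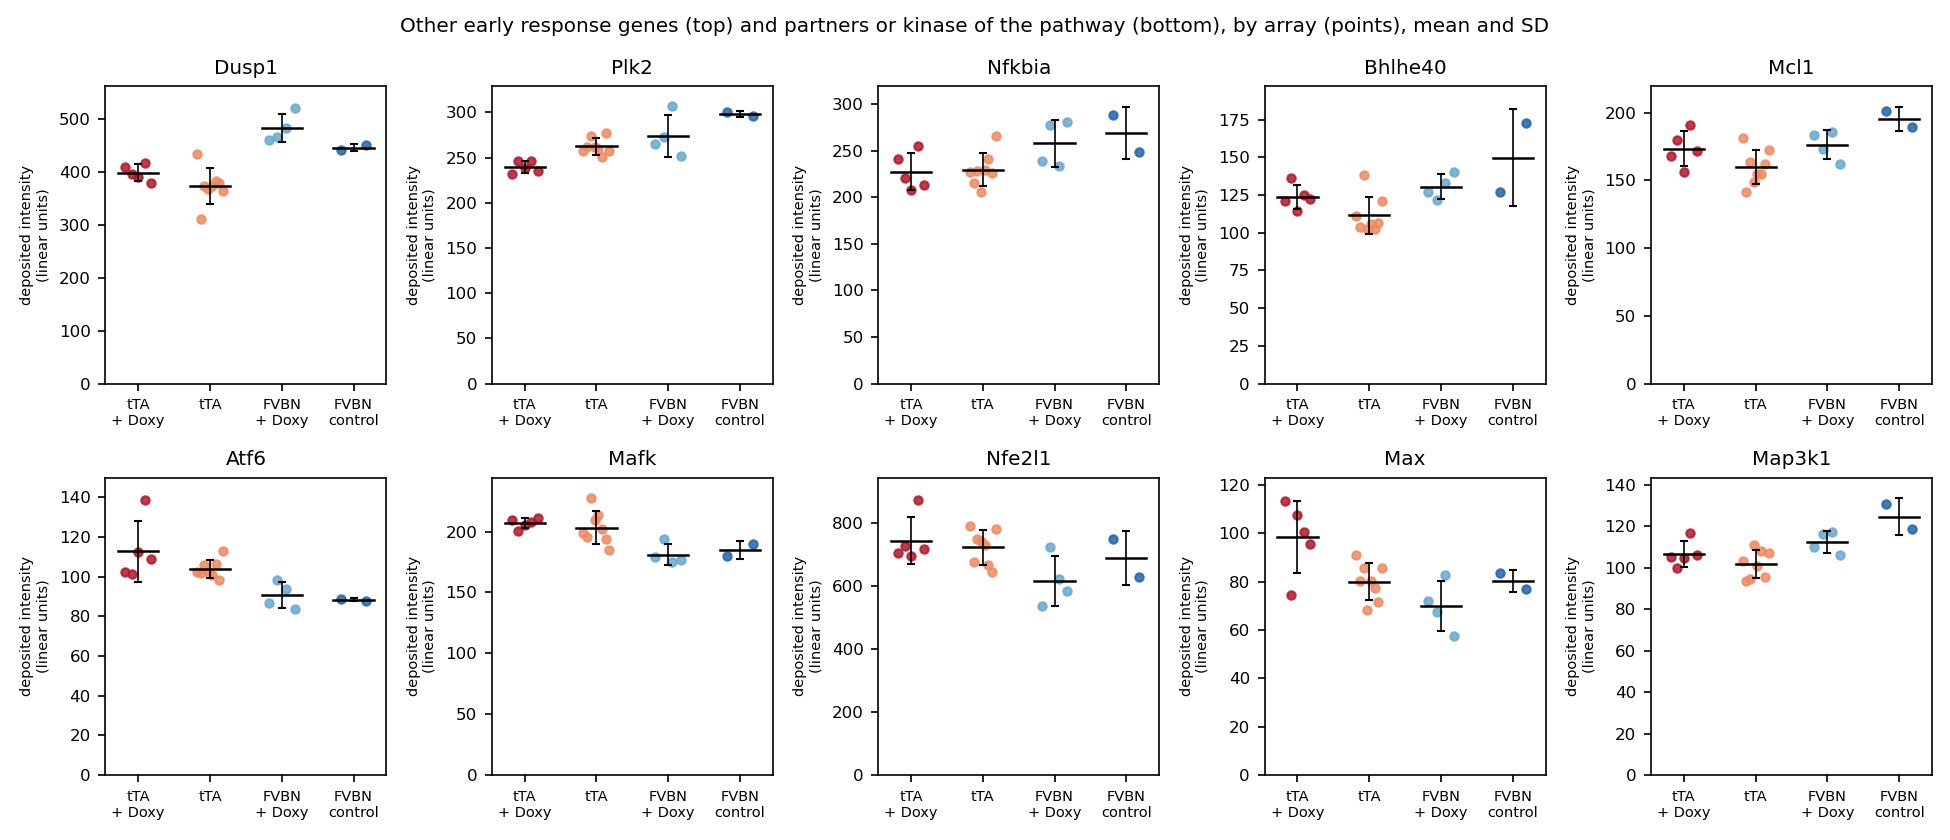
Deposited intensity (linear units, axis from 0) by group of 5 other early response genes (top) and of 4 partners and the kinase Map3k1 (bottom), with 1 point per array and the mean and SD as bars. Dusp1 lies at 310–433 on the tTA arrays of both kinds and at 441–519 on the FVBN arrays, while Atf6 runs the other way, at 98.3–139 against 83.9–98.4.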

How the data were processed

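Transcripts in mouse ventricle were measured on Affymetrix arrays. The deposited table holds linear intensity values for 20 arrays, with medians of 60.74 to 62.45, and how the authors summarised, background-corrected and normalized them is not given in the sources used here. Titles gave groups to 19 arrays; 1 array had none and entered no comparison. The 66 control probe sets were dropped. With limma 3.58.1 in R 4.3.3 the arrays were quantile normalized, values below 14.37 (the 10th percentile) were set to it, log2 was taken, and the brightest 60% were tested, 7453 probe sets. A linear model of 4 group means with an intensity trend and robust moderation gave log2 fold changes, SE and Benjamini-Hochberg adjusted p-values. Folds are 2 to the power of the log2 fold change without its sign. The fit was tested on simulated data.

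The platform annotation linked 10833 probe sets to 1 gene, 396 to several and 1193 to none, and 10817 of the first kind matched a RefSeq gene number. Named were every member probe set and up to 4 called genes per list and comparison by size of change, each list gene by its brightest probe set. Also named were the 3 probe sets most like the brightest probe set of each member with a call. The members and lists were chosen with earlier results of these data known. Correlations used Python 3.11.15 with scipy 1.17.1. Alternatives were median scaling or no normalization, other floors (5th and 25th percentile), all or the brightest 40% of probe sets, array weights, no trend, only the arrays compared, the beta-actin ratio as a covariate, tTA arrays 9310 and 9322 left out, and each array left out in turn. Promoters came from RefSeq, which had 7 of the members.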

Additional observations from a re-analysis of the deposited data

Results flagged for a closer look

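The 15 member probe sets were checked in the 3 groups of 4 to 8 arrays, leaving out the 2 arrays of FVBN control and the 3 groups of Myc, which lay at the floor throughout. Of the 42 sets of arrays that remained, 3 held an array whose gap to the nearest other array made up most of the group's range. Chance marks about 1 in 20 such groups when values are not tied. The rate does not apply where most arrays of a group are tied at the floor, as in both Fos groups below. The dimmer Fos probe set stood apart on tTA array 7288, at 4.01 on the normalized log2 scale (intensity 16.3), and on tTA + Doxy array 7399, at 3.953 (intensity 15.4), while most other arrays of both groups lay at the floor. The Junb probe set 102362_i_at stood apart on FVBN + Doxy array 8341, at 7.27 (intensity 153.4), above the other 3 arrays of that group.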

How the results depend on the processing

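Over 30 alternatives Ier3 stayed called lower in tTA against FVBN control hearts (-0.78 to -0.53, limma adjusted p from 0.000108 to 0.0478), as the 1 member called in each, and in tTA + Doxy against FVBN + Doxy it was called in none (-0.08 to 0.03). No called member changed direction, and of 1934 combinations of a member result and an alternative 81 changed sign with neither value called. The beta-actin ratio as a covariate left 27 called probe sets in tTA against FVBN control, and 210 with 0 members averaged over doxycycline. Under doxycycline, tTA + Doxy against FVBN + Doxy gave 282 with all probe sets tested, 703 with 2 members (Egr1 and Junb) under array weights, and 1 member, Egr1, without tTA arrays 9310 and 9322. Averaged over doxycycline, 1 member was called, Ier3, with median scaling, with all probe sets tested, and without arrays 9310 and 9322. In FVBN + Doxy against FVBN control, 1 member, Ier3, was called with median scaling, no further normalization, the brightest 40%, array weights or without arrays 9310 and 9322, and all calls numbered 1 with all probe sets tested, 5 with only the arrays compared and 8 without arrays 9310 and 9322. In tTA + Doxy against tTA they numbered 10 with median scaling, 11 with no further normalization or array weights, 2 with all probe sets tested and 3 without arrays 9310 and 9322. The interaction gave 1 member, Ier3, under median scaling, no further normalization, the brightest 40% and without arrays 9310 and 9322, with 6, 6, 5 and 4 calls, and 0 calls with all probe sets tested. With each array left out in turn, the counts of all calls ran from 54 to 240 in tTA against FVBN control, 241 to 493 under doxycycline, 340 to 707 averaged, 1 to 7 for doxycycline in FVBN, 3 to 23 for doxycycline in tTA and 0 to 4 for the interaction. The lowest values came without FVBN control array 8177 for tTA against FVBN control (63 without 8182), without either for the average, and without FVBN + Doxy array 8341 under doxycycline, while the highest for doxycycline in tTA came without tTA array 7294. Members called then numbered 0 to 1 under doxycycline, 1 to 2 averaged and 0 to 1 for doxycycline in FVBN. Pairs of members with r above 0 numbered 21 to 26, and 20 of 28 without Fos, an alternative chosen after seeing the data. The cause of these changes was not tested. Genes below the 60% brightness limit, Fos and Myc among them, had too little signal for a comparison.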

Other observations

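One array of the table carried a title without a group and was compared with none. On it Ier3 read 270, Egr1 132, Fosb 82.4, Jun 115, Jund 1339 and Ier2 64.6 intensity units, the Junb probe sets 178 and 134, the Atf3 probe sets 61.5 to 88.3, the Fos probe sets 20.4 and 16.6 and Myc 12.2.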
